A study of Homo sapiens with 15 samples.

Results

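The 4 HOX clusters were examined as open chromatin in K562 cells, through every peak of 15 peak lists that overlapped 1 of 4 windows on the human genome build hg19. The windows were chr7:27130000-27260000 for HOXA, chr17:46600000-46820000 for HOXB, chr12:54330000-54452000 for HOXC and chr2:176940000-177060000 for HOXD, and were set by position without use of the measured values. They held 885 of the 1070377 peaks of the 15 lists, between 43 and 73 in a library. Overlapping peaks were merged across lists into 83 open sites, of 120992 in the genome: 10 in HOXA, 37 in HOXB, 20 in HOXC and 16 in HOXD. The windows cover 38 member genes.

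K562 is a human erythroleukemia line. Its cells were transduced with lentivirus and selected with puromycin to express catalytically dead Cas9 (dCas9), or dCas9 fused to the KRAB repressor domain (dCas9-KRAB), with a guide RNA (gRNA) called Cr4 or Cr10 that was aimed at the globin enhancer HS2. The 15 libraries fall into 5 groups of 3. One group had dCas9-KRAB without gRNA. Cr4 was combined either with dCas9 or with dCas9-KRAB, and so was Cr10. An annotation field gave HS2 as target in the group without gRNA too, and titles were followed there. All groups, controls included, carry dCas9 and the selection marker, and no untransduced cells were analysed here. HS2, a defining open site of these cells, had 1 peak in each of the 15 lists. The lists held 53147 to 94777 peaks, and the median pileup at the summits of regions shared by all lists ran from 44 to 115. Transduction in triplicate is described for the series, but no label ties a library to a culture, so the spread between libraries may be partly technical.

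HOX genes encode homeodomain transcription factors that tell cells their position along the body axis. They lie in 4 clusters that arose by duplication, genes in the same position in different clusters form paralog groups, and low-numbered groups act towards the head while high-numbered groups act towards the tail and in the limbs. Polycomb complexes keep unused HOX genes in compact chromatin and Trithorax-type complexes such as those with KMT2A keep them active. In blood, genes of the HOXA and HOXB clusters are known from stem and progenitor cells, and HOXA9 and HOXA10 from myeloid leukemia.

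The clusters also hold microRNA genes of the miR-10 and miR-196 families and miR-615, which lay at unequal distances from open sites. Their mature forms, as listed by RefSeq (GRCh38.p14), are shown because members of a family share a seed, bases 2 to 8 in capitals, while their genes lie in different clusters. A mature miR-10b-5p sequence was not used here.
hsa-miR-10a-5p: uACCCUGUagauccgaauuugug
hsa-miR-196a-5p: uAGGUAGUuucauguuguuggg
hsa-miR-196b-5p: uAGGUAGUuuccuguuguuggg
hsa-miR-615-3p: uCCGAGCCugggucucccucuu
miR-196a-5p, made from MIR196A1 in HOXB and MIR196A2 in HOXC, and miR-196b-5p, made from MIR196B in HOXA, carry the same seed. MIR10A lay 0.807 kb from an open site that was present in all 15 lists, the site on the start of HOXB4. MIR196A1 lay 1.00 kb and MIR615 0.986 kb from sites present in all 15 lists. By contrast MIR196A2 was 2.35 kb from its nearest site, which was seen in 1 list. MIR196B was 7.88 kb and MIR10B 9.22 kb from the nearest site. The pair of genes that make the same miR-196a-5p thus differed in how regularly their nearest site was seen, with no test of that difference. This covers the nearest site only. Farther from MIR196A2, a site 4.23 kb upstream of HOXC9 was present in all 15 lists.

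Open sites overlapped or lay near the starts of 19 of the 38 members, and the other 19 had none within 1 kb in any list. Of the 19 members with a site, 10 had one in all 15 lists. By cluster these were 2 of 10 members in HOXA, 7 of 10 in HOXB, 6 of 9 in HOXC and 4 of 9 in HOXD. By paralog group, 2 of 7 members of groups 1 to 3, which pattern the hindbrain, had a site, against 8 of 15 in groups 4 to 8 and 9 of 16 in groups 9 to 13. Gene starts on hg19 were recalled positions, checked only by their spacing against RefSeq on another build. The spacing of the 5′ end held within 400 bp for 31 of 38 members; HOXA3, HOXB3, HOXC4, HOXC5, HOXC6, HOXD3 and HOXD13 did not meet this. Distances from starts given in bp rest on these recalled positions and can be finer than this check. A distance of 2 kb in place of 1 kb added HOXD12 and raised the members with a site in all lists to 12.

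**Figure D1:**
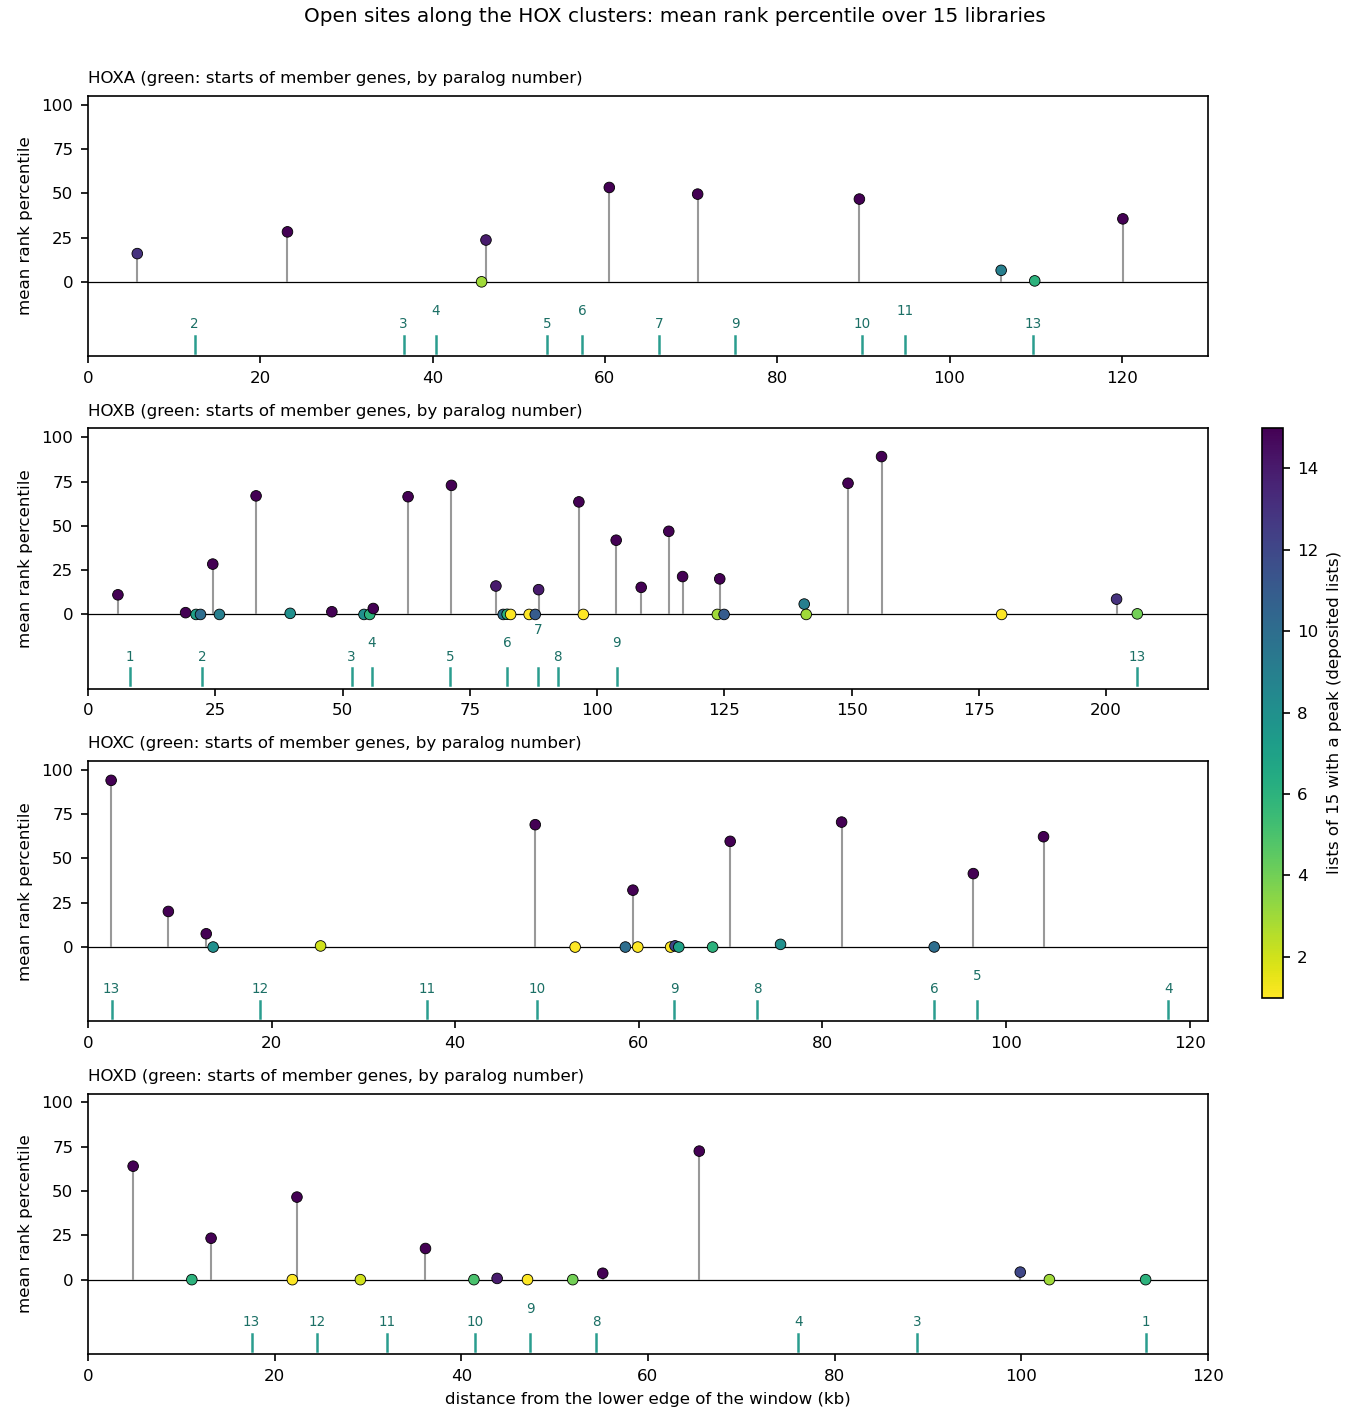
Open sites along the 4 windows, by distance from the window's lower edge in kb (horizontal axis) and mean rank percentile over the 15 libraries (vertical axis, 100 for the strongest peak of a list, 0 for a region not among the peaks kept). Colour gives the number of deposited lists with a peak and green ticks mark member starts; the highest points are at HOXC13 (94.1) and between HOXB9 and HOXB13 (89.1), and HOXA has no site above 53.2.

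The strength of a site was read in 2 ways. The rank percentile placed a peak's fold enrichment among the 53098 strongest peaks kept in each library, with 0 where the region was not among them. The relative pileup was the summit pileup implied by the fold and p-value of the peak, plus 1, divided by the median of that library over the regions in all lists, so that 1 is a typical shared site.

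HOXC held the strongest site of the clusters, on the start of HOXC13, a gene known for hair and nail formation (chr12:54332165-54332880). Its rank percentile was 91.0 at the lowest, 94.2 at the median and 96.6 at the highest of the 15 libraries, and its relative pileup ran from 1.75 through 2.03 to 2.62. Even the lowest library thus placed it among the strongest peaks of its list.
A site on the start of HOXC10, a limb and spinal cord gene (chr12:54378426-54379014), had percentiles of 57.8, 70.6 and 79.4 at the lowest, median and highest. Between HOXC8 and HOXC6, 706 bp past a start that transcripts of HOXC4, HOXC5 and HOXC6 share, lay the widest HOX site, of 1490 bp (chr12:54411348-54412837). It also had the highest mean relative pileup, 2.37 ± 0.223 (SD, n = 15). HOXC5 had a further site 84 bp before its own start as recalled, with percentiles from 18.1 through 46.0 to 54.9, again in all 15 lists. That start did not meet the spacing check. So 5 of the 9 HOXC members, HOXC13, HOXC10, HOXC6, HOXC5 and HOXC4, had a site in every list when the shared start is counted.
On the start of HOXC9 there was a weaker site in 12 lists, flanked by others 333 bp downstream in 7 lists and 288 bp upstream in 1 list. On the downstream start of HOXC6 a peak was found in 10 lists. HOXC12, HOXC11 and HOXC8 had no site within 1 kb of the start. The longest stretch of HOXC without any site, 23 kb, held the start of HOXC11, and the longest without a site in all 15 lists, 35.3 kb, held those of HOXC12 and HOXC11. HOTAIR, a long noncoding RNA gene between HOXC12 and HOXC11, was 9.69 kb from the nearest site.

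HOXB had the most sites and the most members with a site. On the start of HOXB9 lay a site with a relative pileup of 1.70 at the lowest, 2.08 at the median and 2.55 at the highest (chr17:46703200-46704311). Its rank percentile was much lower in the order of sites, with a median of 41.6, beside a local background of 2.86 ± 0.378 (SD, n = 15) times the library median; the rank is by enrichment over that background.
The site 71 bp upstream of HOXB5 (chr17:46671174-46671624) had percentiles of 55.3, 73.4 and 79.2 and a relative pileup of 1.32 ± 0.219 (SD, n = 15). HOXB4, a regulator of blood stem cell growth, had a site on its start in all 15 lists (chr17:46655688-46656393). The relative pileup of that site ran from 0.890 through 1.18 to 1.53, yet it was among the kept peaks of only 5 libraries, with a background ratio of 2.49. Thus both measures have to be read together in this cluster: sites on HOXB9 and HOXB4 were tall but stood on a raised background.
The start of HOXB7 was open in 14 lists, all but dCas9 with Cr10 replicate 1, the library with the shortest list. HOXB2 had a site on its start in 10 lists and another 990 bp downstream in 7. HOXB6 had sites on its start in 6 lists, 475 bp downstream in 10 and 583 bp upstream in 1. For HOXB13, which lies apart from the rest of the cluster, the start was covered in 4 lists. HOXB1, HOXB3 and HOXB8 had no site within 1 kb. The nearest to HOXB1, 2.13 kb downstream, was nevertheless seen in all 15 lists.
The 2 strongest HOXB sites by rank were at the start of no member. They lay in the long interval between HOXB9 and HOXB13 at chr17:46755580-46756179, with percentiles of 79.4, 88.8 and 96.4, and at chr17:46749020-46749574, with 64.1, 75.1 and 84.9. Here the order of the measures turned round: relative pileups were 1.04 ± 0.0745 and 0.730 ± 0.0841 (SD, n = 15 each), and background ratios were 0.664 and 0.578.

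HOXD had its strongest site between HOXD8 and HOXD4, at chr2:177005186-177005806, with percentiles from 67.0 through 72.3 to 78.6. Past it came the longest stretch without any site in the 4 windows, 33.9 kb with the starts of HOXD4 and HOXD3. Second came a site of 1379 bp, 12 kb upstream of HOXD13 (chr2:176944149-176945527), with percentiles from 50.5 through 67.5 to 73.8. Next was a site 1.81 kb upstream of HOXD12 (chr2:176962058-176962724), from 31.1 through 44.6 to 66.2. All were distal to the starts of members.
HOXD8 was the only HOXD member with a site within 1 kb in all 15 lists, 261 bp past its start (chr2:176994729-176995581), and this site was weak, with a relative pileup of 0.538 at the lowest, 0.652 at the median and 0.936 at the highest. Peaks at HOXD1 were found in 6 lists, at HOXD10 in 5 and at HOXD9 in 1. HOXD13, HOXD12, HOXD11, HOXD4 and HOXD3 had none within 1 kb. From HOXD13 to HOXD9, the sites seen in all 15 lists thus lay upstream of HOXD13 or between genes. None of them was within 1 kb of a member start, while the peaks at HOXD10 and HOXD9 were in fewer lists.

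HOXA was the sparsest in members with a site. Its strongest sites lay between genes, 2.85 kb upstream of HOXA6 (chr7:27190247-27190775) with percentiles from 25 through 51.2 to 78.2, and between HOXA7 and HOXA9 (chr7:27200316-27201217) from 29.1 through 51.3 to 63.1. Next, 184 bp past the upstream start of HOXA10 (chr7:27219382-27219696), came a site with percentiles of 32.6, 46.9 and 59.0 and a relative pileup of 0.920 ± 0.173 (SD, n = 15). HOXA10 was thereby the only HOXA member with a site in all lists. At HOXA13, a gene of the limb tips and hindgut, a peak 17 bp upstream was found in 6 lists. HOXA2, HOXA3, HOXA4, HOXA5, HOXA6, HOXA7, HOXA9 and HOXA11 had none within 1 kb. A stretch of 36.9 kb with no site in all 15 lists held the starts of HOXA3, HOXA4, HOXA5 and HOXA6. The start of HOTAIRM1, a noncoding RNA gene at the low-numbered end, was covered in 13 lists. HOTTIP, at the other end, was 1.55 kb from a site seen in 6 lists.

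**Figure D2:**
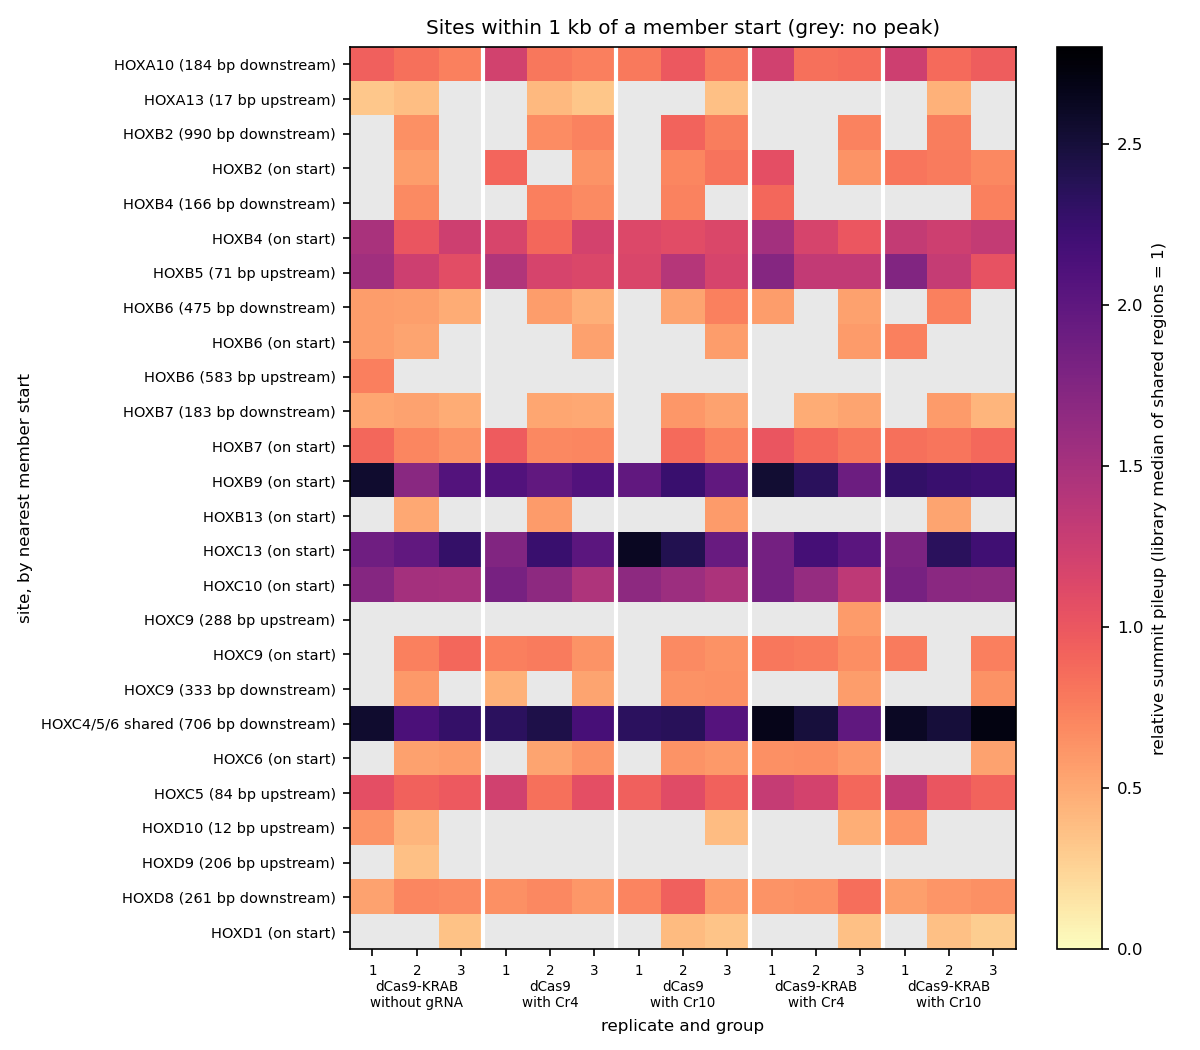
Relative summit pileup (colour, 1 for the library median of shared regions) at the 26 sites within 1 kb of a member start (rows, named by the nearest start) in the 15 libraries (columns, by group and replicate), grey where the list has no peak. The rows of HOXB9, HOXC13 and the start shared by HOXC4, HOXC5 and HOXC6 are dark in all libraries, and 9 rows have no grey cell.

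The count of the 26 start sites seen differed between the deposited lists. In the shortest list, dCas9 with Cr10 replicate 1, 9 of them had a peak, which are the 9 found in every list. In dCas9-KRAB without gRNA replicate 2 there were 23 and in the longest list, dCas9 with Cr10 replicate 3, there were 22. With lists of equal length the count was 7 to 11 in every library. HOXD10 had a peak in dCas9-KRAB with Cr10 replicate 1, a list of 60522 peaks, and none in dCas9 with Cr4 replicate 3, a list of 86931. A missing peak in a list does not show closed chromatin.

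Promoters were read for the members with a peak over some part of the window from 250 bases before the start to 50 after it, and whose recalled position met the RefSeq spacing within 100 bp. HOXA13, HOXD10 and HOXD1 were such members among the 20 of 38 matched in the RefSeq table (GRCh38.p14), and all belong to the weak, irregularly seen starts. Each run has 250 bases before the start and 50 from it, 5′ to 3′ on the gene's strand. Capitals mark matches, on either strand, to 6 short motifs. The letters TATAAA stood for the TATA box and the letters CCAAT for the CCAAT box. A GC box was searched as GGGCGG and a GATA factor site as AGATAA. The joint site of HOX and PBX proteins was searched as TGATNNAT, and the core of the CTCF motif as AGGNGGC. A GC box and the CTCF core can overlap, as they do in HOXA13.
HOXA13, minus strand of chromosome 7: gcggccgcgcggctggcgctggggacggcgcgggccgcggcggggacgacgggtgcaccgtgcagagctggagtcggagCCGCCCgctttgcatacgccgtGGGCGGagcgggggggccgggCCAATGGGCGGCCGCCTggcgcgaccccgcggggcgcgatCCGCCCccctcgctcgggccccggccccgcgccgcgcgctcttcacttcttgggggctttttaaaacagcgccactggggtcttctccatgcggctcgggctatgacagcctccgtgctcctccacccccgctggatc
HOXD10, plus strand of chromosome 2: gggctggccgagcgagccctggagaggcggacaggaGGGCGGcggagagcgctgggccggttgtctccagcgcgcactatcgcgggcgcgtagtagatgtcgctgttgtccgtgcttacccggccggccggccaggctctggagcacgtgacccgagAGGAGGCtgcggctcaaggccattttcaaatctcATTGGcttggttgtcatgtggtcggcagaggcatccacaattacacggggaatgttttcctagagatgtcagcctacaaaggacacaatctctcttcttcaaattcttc
HOXD1, plus strand of chromosome 2: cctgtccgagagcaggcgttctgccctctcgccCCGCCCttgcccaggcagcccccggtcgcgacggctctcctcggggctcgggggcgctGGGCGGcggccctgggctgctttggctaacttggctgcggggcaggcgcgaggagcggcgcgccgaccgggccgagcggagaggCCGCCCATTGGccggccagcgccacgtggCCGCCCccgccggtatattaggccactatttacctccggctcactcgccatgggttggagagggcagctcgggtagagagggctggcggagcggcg
All have a CCAAT box and GC boxes, and none has the TATA or GATA letters. The GC content was 76.3% for HOXA13, 60.0% for HOXD10 and 74.3% for HOXD1. Over the 20 members with a sequence, 17 had the CCAAT letters against 34.6% of 35116 promoters in the table, and 10 had the GC box against 45.0%. The GATA letters were found in 0 of the 20 against 10.3% and the TATA letters in 4 against 11.5%. The HOX-PBX letters were in 3 against 7.40% and the CTCF letters in 8 against 35.9%. These are letter matches and were not tested.

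The density of peaks differed between clusters within every library. In lists of equal length, HOXA had 5.33 ± 0.541, HOXB 7.42 ± 0.534, HOXC 7.43 ± 0.847 and HOXD 4.78 ± 0.801 peaks per 100 kb (SD, n = 15). HOXB and HOXC were each higher than HOXA and than HOXD in 15 of 15 libraries. The differences were 2.65 for HOXB minus HOXD and 2.65 for HOXC minus HOXD, and -2.09 for HOXA minus HOXB and -2.10 for HOXA minus HOXC. Each had an adjusted p of 9.16e-05 (exact two-sided sign-flip test over the libraries, Benjamini-Hochberg over 6 pairs), from the smallest p this design can give, 6.10e-05. HOXB and HOXC differed by -0.00745 (SD of the difference 0.837), and HOXB was higher in 7 of 15 libraries (adjusted p = 0.972, exact test). Windows without their outer 10 kb on each side turned this to 0.839, with an adjusted p of 0.00718 (exact test). The trim takes from HOXC the site on the start of HOXC13 and one 6.03 kb past that start, both kept in all 15 libraries. From HOXB it takes the site 2.13 kb downstream of HOXB1, kept in 12. In the full windows HOXA and HOXD were not separated, at 0.556 (adjusted p = 0.0767, exact test, higher in HOXA in 11 of 15).
The order of HOXA and HOXD turned with the lists. In the lists as deposited, which hold more weak peaks, HOXA had 6.15 ± 0.769 and HOXD 8.17 ± 1.64 peaks per 100 kb (SD, n = 15), and the difference of -2.01 had an adjusted p of 0.000366 (exact sign-flip test). The 15 libraries are of 1 cell line, so these tests describe K562 libraries only.

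**Figure D3:**
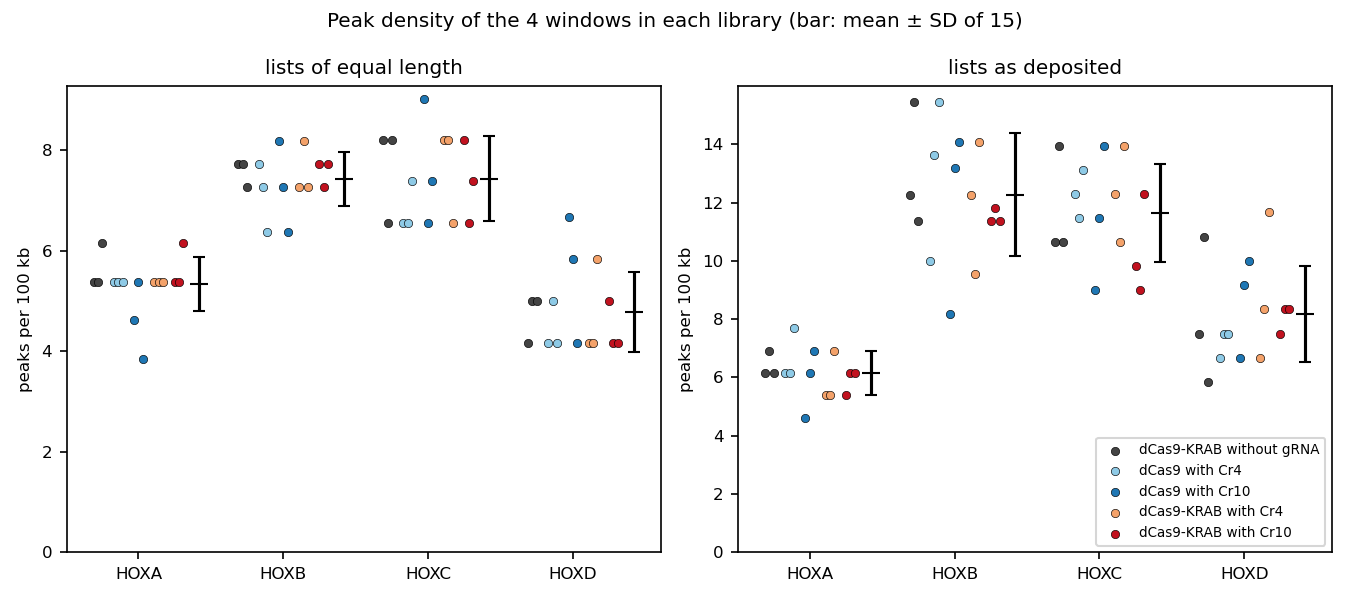
Peaks per 100 kb (vertical axis) of each window in every library, coloured by group, in lists of equal length (left) and as deposited (right); the black bar is the mean ± SD of 15 libraries. HOXB and HOXC lie above HOXA and HOXD on the left, while on the right HOXD moves above HOXA.

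Compared with open sites elsewhere, HOX sites pooled over the clusters were more often shared by all lists and had a lower fold, though not alike in each cluster. Of the 83 sites 43.4% were in all 15 deposited lists, against 32.1% of all 120992 regions; the share was 50% in HOXA, 43.2% in HOXB, 45% in HOXC and 37.5% in HOXD. Over those 36 shared HOX sites the median fold was 7.05, against 8.5 over all shared regions, and the median relative pileup was 1.04 against 0.998. The median fold was 7.22 in HOXA, 6.46 in HOXB and 6.48 in HOXD, while in HOXC, at 8.35, it was near that of the genome. By cluster the median relative pileup was 0.900 in HOXA, 1.2 in HOXB, 1.17 in HOXC and 0.995 in HOXD. Their median width was 534 bp against 548 bp. Summit heights were thus near those elsewhere in the pooled sites, while the fold was lower.
The local background under these sites was higher. It was worked out from the fold and the implied pileup, so it is not a measurement independent of them. Its ratio to the library median over shared regions had a median of 1.35 at the 36 shared HOX sites against 1.00 in the genome, with 1.01 in HOXA, 1.49 in HOXB, 1.33 in HOXC and 1.36 in HOXD. A ratio of 2 or more was found at 4 of 16 shared sites in HOXB and 1 of 9 in HOXC, the latter past the shared start of HOXC4, HOXC5 and HOXC6, against 8.83% of shared regions in the genome. HOXA and HOXD had none.
Within HOXB the ratio was highest from HOXB2 to past HOXB9. From HOXB2 to 6 kb past HOXB9 the 23 sites had a median ratio of 1.81 (range 1.03 to 2.86). Of these, 10 reached 2, near HOXB2 and HOXB4 and from upstream of HOXB8 to past HOXB9. Only 4 of the 10 were in all 15 lists, and the ratio exists only where a list has a peak. The other 14 sites, around HOXB1 and from past HOXB9 to HOXB13, had a median of 1.03 (0.480 to 1.98), and 0 reached 2; the highest, 3.04 kb downstream of HOXB2, was at 1.98. The limits of this stretch were chosen with the values in view. HOXC had raised sites around HOXC9 too. Those 5.09, 4.23 and 3.88 kb upstream of its start were at 1.75, 1.98 and 2.20, the site 288 bp upstream at 2.08, the site on the start at 1.89 and that 333 bp downstream at 1.78. Of these 6 HOXC sites only the one at 4.23 kb was seen in all 15 lists, and the pair above 2 were each seen in 1 list. Over the shared HOXB sites of a library the median ratio was 1.5 ± 0.312 in the group without gRNA (SD, n = 3). For Cr4 it was 1.46 ± 0.195 under dCas9 and 1.63 ± 0.303 under dCas9-KRAB, and for Cr10 it was 1.43 ± 0.212 and 1.52 ± 0.134 (SD, n = 3 each). The libraries of all groups overlapped. Replicate 1 had the highest ratio of its group in every group but dCas9 with Cr10. It was at 1.86 without gRNA and at 1.68 with dCas9 and Cr4. Under dCas9-KRAB it was at 1.98 with Cr4 and 1.63 with Cr10. In dCas9 with Cr10 it was the lowest, at 1.19. This pattern was not tested. No input or control track was used here, so a broadly open stretch and more DNA in the library from that stretch cannot be told apart.

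**Figure D4:**
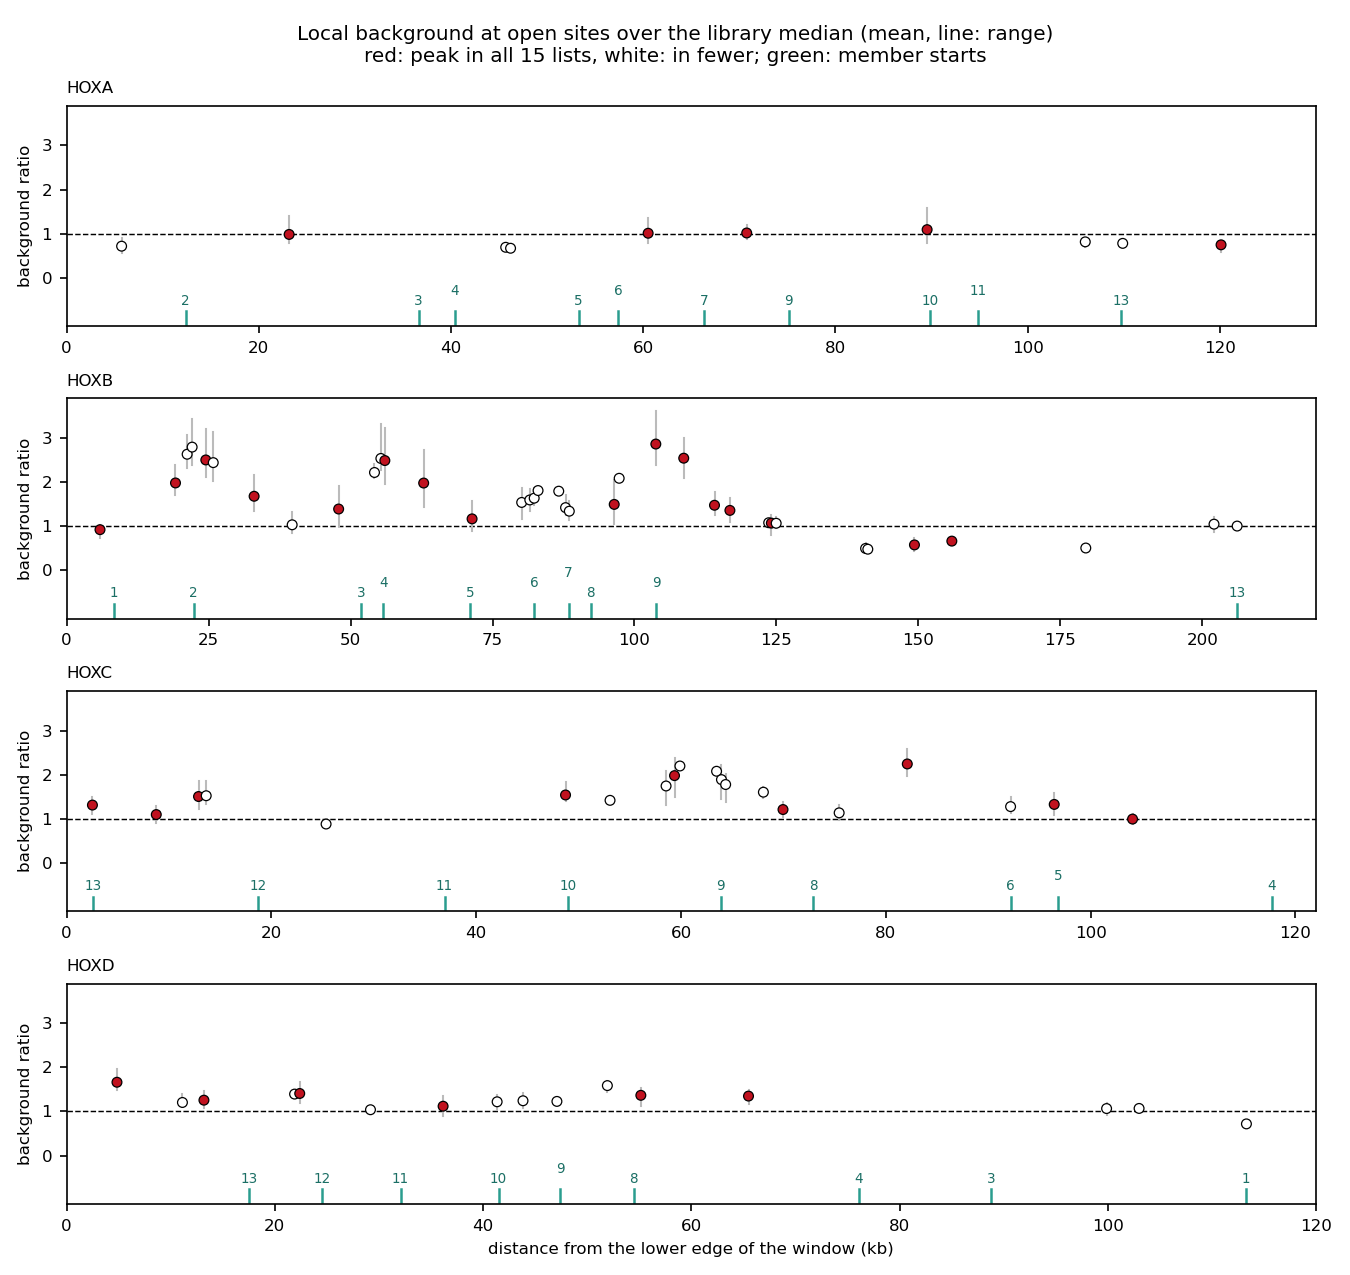
Local background at each site over the library median of shared regions (vertical axis, mean over the lists with a peak, line for the range) along the windows in kb from the lower edge. Red points are sites in all 15 lists, white points in fewer, the dashed line is 1, and points above 2 lie near HOXB2, HOXB4, HOXB8 and HOXB9 and, in HOXC, upstream of HOXC9 and past the start shared by HOXC4, HOXC5 and HOXC6.

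The groups were compared to see whether HOX sites moved when the repressor or a gRNA was present, since dCas9-KRAB binding away from HS2 was a question of the study. No HOX site passed the threshold in any of 8 comparisons. Limma with Benjamini-Hochberg adjustment called 0 of 45 tested HOX sites by rank percentile and 0 of 36 by summit pileup. It called 0% of the 62858 and of the 38888 regions tested in the genome. With no region called anywhere, HS2, at which the gRNAs were aimed, was not called either. The absence of HOX calls therefore does not show that these sites were unchanged. The 45 are those of the 53 sites in the equal-length lists that had a peak in at least 3 libraries. The 36 are those in all 15 deposited lists. The rest of the 83 met neither rule and were not tested, though some were in most deposited lists. The site 2.22 kb past the start of HOXD10 was in 14 of these, but among the kept peaks of only 2 libraries.
At an unadjusted p under 0.05 by rank, the first 4 comparisons were against the group without gRNA. Under dCas9-KRAB they reached 0 HOX sites for Cr4 (2.43% of all regions) and 0 for Cr10 (2.81%). Under dCas9 they reached 0 for Cr4 (1.39%), while for Cr10 there were 3 of 45, or 6.67%, against 2.97% of all regions. For dCas9-KRAB against dCas9 there were 0 with Cr4 (1.25% of all regions) and 1 with Cr10 (2.5%). The gRNAs compared under dCas9-KRAB, Cr4 against Cr10, gave 0 (2.65%). Pooling the 6 repressor libraries that had a gRNA against the other 9 gave 0 (1.72%).
By summit pileup the unadjusted count was 0 of 36 HOX sites in each comparison. The shares of all regions, in the same order, were 0.723%, 0.841%, 0.311%, 1.09%, 0.211%, 1.3%, 0.717% and 0.769%. Apart from the 3 sites by rank, the HOX shares were at or below those of the genome. Comparisons with the group without gRNA share those 3 libraries.

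The median HOX difference was small as well. By rank it lay between -2.20 percentile points, for dCas9-KRAB with Cr4 against the same with Cr10, and 1.48 points, for dCas9-KRAB against dCas9 with Cr10, where the medians of all regions were -0.0396 and 0.151. By pileup, on the log2 scale, its lowest value among the 8 comparisons was -0.01, in the Cr10 libraries with dCas9 set against those lacking a gRNA (0.00805 over all regions). Its highest was 0.06, in the Cr10 libraries with the repressor set against those with dCas9 alone (0.00419 over all regions). The comparison with the fewest sites lower, 10 of 36, was dCas9-KRAB against dCas9 with Cr4, with a median of 0.04 (0.00233 over all regions). For the 6 repressor libraries that had a gRNA against the other 9 it was 0.03 (0.00361 over all regions), with 12 of 36 sites lower.
The site of lowest p in each comparison shows the spread behind this. On the start of HOXB7 the rank percentiles with dCas9-KRAB and Cr4 were 35.8, 33.5 and 3.72, against 22.3, 0 and 5.99 without gRNA. The groups overlapped, and limma gave a difference of 14.9 ± 10.5 points (SE, adjusted p = 1). The same site led the pooled comparison, at 22.2 ± 13.1 (SD, n = 6) against 8.52 ± 12.4 (SD, n = 9), with limma's adjusted p = 1.
Upstream of HOXD13 by 4.14 kb (chr2:176952993-176953387) the percentiles were 37.1, 8.54 and 14.5 with dCas9-KRAB and Cr10 and 43.5, 25.5 and 39.2 without gRNA, a difference of -16.0 ± 9.94 points (SE, limma, adjusted p = 1). It was also lower with dCas9 and Cr10, at 8.33, 23.3 and 8.52, so that here the groups did not overlap (unadjusted p = 0.0369 in limma, adjusted p = 1). A site 10.2 kb upstream of HOXA13 (chr7:27249958-27250289) had 54.0, 55.4 and 31.3 with dCas9 and Cr4 against 18.8, 47.3 and 10.5 without gRNA, which overlap.
Between HOXD3 and HOXD1 a weak site (chr2:177039718-177040061) was kept in 2 of 3 libraries of dCas9 with Cr10, at 17.4, 25.7 and 0. It was at 0, 0.0527 and 0 without gRNA and at 0 in all 3 libraries of dCas9-KRAB with Cr10. Its unadjusted p was 0.0249 and 0.0248 in the 2 comparisons, with adjusted p = 1 in both (limma). The last site under 0.05 for dCas9 with Cr10 against no gRNA lay 2.13 kb downstream of HOXB1, with an unadjusted p of 0.0263 (limma, adjusted p = 1).
For dCas9-KRAB against dCas9 with Cr4 the lead was the second strongest HOXB site, with 75.1, 69.2 and 84.9 against 76.1, 64.4 and 64.1, which overlap. For Cr4 against Cr10 under dCas9-KRAB it was a site 3.92 kb past the start of HOXD11 (chr2:176976004-176976320). Its percentiles of 10.3, 11.6 and 6.41 with Cr4 did not overlap those of 28, 22.9 and 24.9 with Cr10. The difference was -15.8 ± 7.91 points (SE, limma, adjusted p = 1), and 3 against 3 libraries cannot give an exact permutation p below 0.1.

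**Figure D5:**
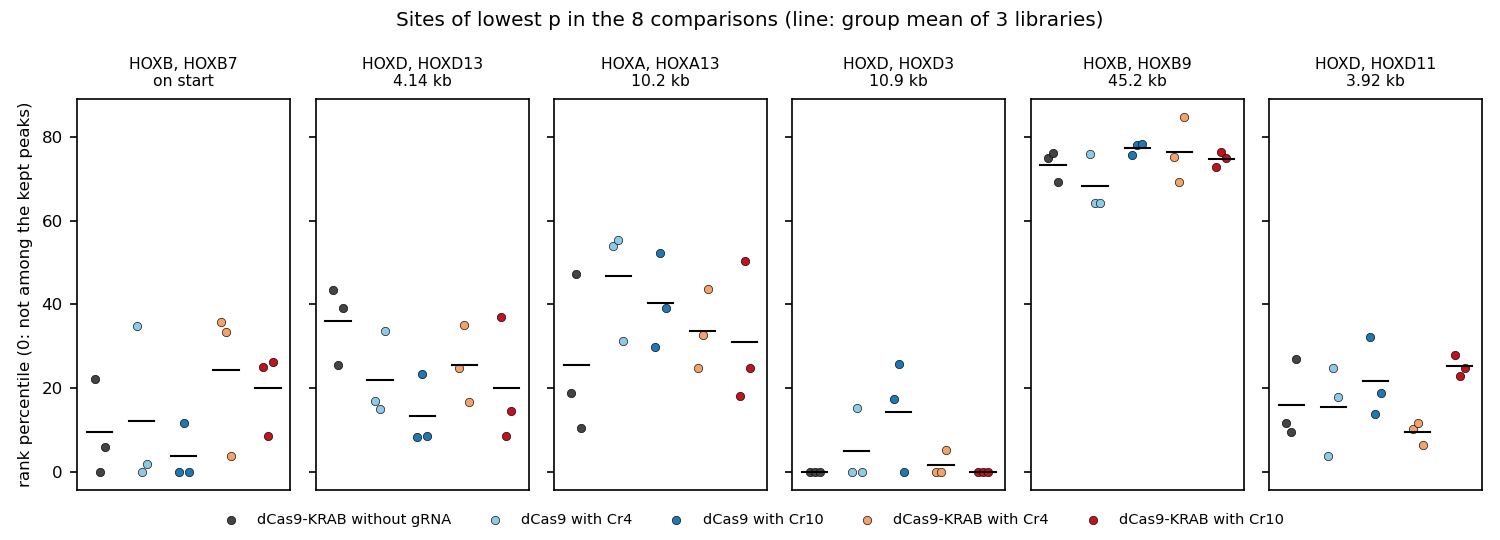
Rank percentile (vertical axis, 0 where the region is not among the kept peaks) of the 6 sites with the lowest p by rank, 1 panel each named by the nearest member start, in the 15 libraries coloured by group; the line is the mean of 3 libraries. Points of different groups overlap in most panels, and HOXD11 separates Cr4 (6.41 to 11.6) from Cr10 (22.9 to 28) under dCas9-KRAB.

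By pileup the lead sites were those between HOXB8 and HOXB9, at HOXA10, upstream of HOXA13, upstream of HOXB9, past the start shared by HOXC4, HOXC5 and HOXC6, and between HOXB4 and HOXB5. At the shared HOXC start the relative pileups were 2.61, 2.5 and 2.71 with dCas9-KRAB and Cr10 and 2.33, 2.36 and 2.06 with dCas9 and Cr10, which do not overlap. The ratio was 1.16 and the log2 difference 0.21 ± 0.13 (SE, limma, adjusted p = 1.00). With Cr4 the values were 2.67, 2.49 and 1.98 under dCas9-KRAB and 2.33, 2.44 and 2.16 under dCas9, which overlap. Between HOXB4 and HOXB5 (chr17:46662640-46663110) the relative pileup was 2.14 ± 0.406 (SD, n = 6) where the repressor had a gRNA and 1.88 ± 0.307 (SD, n = 9) in the others. Its exact two-sided permutation p was 0.172, unadjusted. The strongest HOX site, on HOXC13, was at 1.79, 2.34 and 2.20 with dCas9-KRAB and Cr10 and at 1.88, 1.97 and 2.28 without gRNA, and these overlap.

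The number of peaks per cluster did not separate the repressor with a gRNA from the rest. In lists of equal length HOXA had 7.17 ± 0.408 peaks in those 6 libraries and 6.78 ± 0.833 in the other 9, HOXB 16.7 ± 0.816 and 16.1 ± 1.36, HOXC 9.17 ± 0.983 and 9 ± 1.12, and HOXD 5.5 ± 0.837 and 5.89 ± 1.05 (SD). Exact two-sided permutation p-values were 0.508, 0.522, 0.807 and 0.606, each 0.807 after adjustment over the 4 clusters. The sign of all 4 differences turned in the deposited lists, none of them past the threshold.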

How the data were processed

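Peak lists of nuclease-accessible chromatin from 15 K562 libraries were used, grouped by title into 5 groups of 3. Per the submitters' processing notes, CASAVA 1.3, BWA and bedtools were used on hg19; the caller and the read totals were not given in the sources used here. The fold column is the authors' ratio of summit to local background for each peak. P-values and q-values were deposited as −log10, and the score was deposited as a whole number. The depth is therefore known only from the implied pileup.

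Peaks on autosomes and X were ranked by fold, lists were shortened to 53098 peaks, and peaks sharing 1 bp or more were joined to 78352 regions; tests used the 62858 found in 3 or more libraries. Merging the deposited lists gave 120992 regions, 38888 in all 15. The summit pileup was the whole number that met both the fold and the Poisson p-value within 0.01. It existed for 100% of peaks. The local background was this pileup plus 1, divided by the fold, less 1. Limma 3.58.1 (R 4.3.3) fitted all libraries with a trend, on the percentile and on log2(pileup + 1) less the library median, with a threshold of 0.05 after Benjamini-Hochberg adjustment over all regions; the script was tested on simulated data. Cluster counts were compared by exact permutation with Python 3.11.15, numpy 2.4.6, pandas 2.3.3 and scipy 1.17.1, and figures were drawn with matplotlib 3.10.9.

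Members and lists were chosen with earlier results of these data known. Named are members with a site within 1 kb of a start, those without, the 3 sites of highest mean percentile in each cluster and the site of lowest p in each comparison; other sites named were chosen after their values were seen. Lists of HOX partner and regulator genes and of cell type markers other than HS2 needed hg19 gene starts and were not run. Sequences at hg19 coordinates were not used here. Alternatives covered list length, ranking, filters, overlap, limma settings, replicate block, centring, window edges and leaving out each library; same-numbered libraries had deviations that correlated over 0.1 in all pairs of 2 comparisons (repressor with Cr10, and dCas9 with Cr4, each against no gRNA), a pairing read from the data and not the labels.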

Additional observations from a re-analysis of the deposited data

Results flagged for a closer look

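A total of 6 values stood apart from the others of their set, among 80 sets of 6 or 9 libraries examined. The measure was the gap to the nearest value divided by the range. For values without ties, chance alone gives about 1 in 20. Peak counts have ties, so that rate does not hold for the HOXA count below. None was weighed for a cause. HOXA had 8 peaks in dCas9-KRAB with Cr10 replicate 3 and 7 in each of the other 5 libraries with dCas9-KRAB and a gRNA. The relative pileup of the site 4.23 kb upstream of HOXC9 was 1.87 in dCas9-KRAB with Cr10 replicate 2, against 1.13 to 1.36 in those other 5. Past the start shared by HOXC4, HOXC5 and HOXC6 it was 1.98 in dCas9-KRAB with Cr4 replicate 3, against 2.49 to 2.71. At the site 3.92 kb past the start of HOXD11 it was 0.855 in dCas9-KRAB with Cr10 replicate 1, against 0.657 to 0.714. Past the start of HOXD8 it was 0.848 in dCas9-KRAB with Cr4 replicate 3, against 0.565 to 0.652, and 0.936 in dCas9 with Cr10 replicate 2, against 0.538 to 0.711 in the other 8 libraries outside that set.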

How the results depend on the processing

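Across 351 fits of an alternative to a comparison, by rank and by pileup, the number with a called HOX site was 0, and the largest unadjusted count of HOX sites was 4. With the replicate block the count of called HOX sites was 0 in each comparison, as without it, and no other call changed; 13 of 30 same-numbered pairs correlated over 0.1. Without centring, the median of all regions moved by up to 0.19 on the log2 scale, and the difference of Cr4 against Cr10 under dCas9-KRAB past the shared HOXC4, HOXC5 and HOXC6 start turned from -0.14 to 0.0637.

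Peak densities of HOXB and HOXC stayed above those of HOXA and HOXD under every alternative run. HOXA minus HOXD was 0.675 per 100 kb with the 50000 strongest peaks (adjusted p = 0.0429, exact sign-flip test), -2.01 in deposited lists, -694 bases covered per 100 kb, and -0.778 with lists shortened by p-value, an alternative chosen after seeing the data. HOXB minus HOXC was 0.633 in deposited lists and 0.839 in windows without their outer 10 kb (adjusted p = 0.00718, exact test). Those shorter windows leave out the site on the start of HOXC13. Leaving out each library gave 0.453 to 0.742 for HOXA minus HOXD, which passed the threshold without dCas9 with Cr10 replicate 1 (adjusted p = 0.00674, exact test), and -0.0915 to 0.0644 for HOXB minus HOXC.

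For the repressor with a gRNA against the rest, in peaks per cluster, the 50000 strongest peaks gave -0.333 in HOXB and -0.0556 in HOXC. Deposited lists gave -0.556 in HOXA, -1.94 in HOXB, -0.611 in HOXC and 0.611 in HOXD. Lists shortened by p-value gave -0.611 in HOXB and 0.278 in HOXD. None passed the threshold, and the cause of these turns was not tested. Of the 83 HOX sites 9 were seen in a single list.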

Other observations

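Most sites seen in every list lay away from the member starts: of the 36 sites in all 15 lists, 9 lay within 1 kb of one. In the shortest list 33 of the 57 other sites had a peak, and in dCas9-KRAB with Cr4 replicate 3, 49 of them did. PRAC1, a gene beside HOXB13, was 2.02 kb from a site seen in 13 lists, and EVX2, the homeobox gene beside HOXD13, was 2.29 kb from a site seen in 6 lists.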
